A study of Mus musculus with 24 samples.

Results

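The genes of the synaptic vesicle and of transmitter release were followed in hippocampal CA1 of mice after pilocarpine-induced status epilepticus (SE). The group was set by a list of gene names and holds 44 of the 18647 genes in the count table, all of them with enough reads to be tested. No measured value entered the choice of the names, although earlier results of these data were known when they were listed. The 24 libraries of polyA RNA from microdissected CA1 fall into 8 groups of 3. All animals were adult C57Bl/6N mice of at least 60 days. The SE groups had received 1 mg/kg scopolamine, 335 mg/kg pilocarpine 20 min later and 4 mg/kg diazepam 40 min after the onset of SE, and their tissue was taken 6, 12, 24, 36 or 72 h afterwards. The control (Ctr) groups were collected at 12, 36 and 72 h and had been given the same drugs with saline in place of pilocarpine, so scopolamine and diazepam were common to all animals. Mice that did not develop SE after pilocarpine were not used, which restricts the SE groups to responders.

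Transmitter release rests on a cycle. Vesicles are filled with transmitter, held by synapsins, docked and primed at the active zone, fused by SNARE proteins when calcium binds a synaptotagmin, and recovered by endocytosis. In CA1, pyramidal cells, interneurons and the incoming axons of other cells all have release sites, but the messenger RNA in a dissected piece comes from the cell bodies and processes it contains.

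The libraries held between 2663936 and 30133731 reads counted in genes, with a median of 13521590, and the shallowest were Ctr 72 h replicates 3 and 2 with 2663936 and 5793721. Levels are given as CPM, the reads of a gene relative to the scaled total of its library, and changes as log2 fold changes (log2FC) from edgeR's quasi-likelihood test, adjusted by Benjamini-Hochberg across 18153 genes. A gene was called higher or lower at an adjusted p of at most 0.05 and a log2FC of at least 0.66 in size, or of at least 1 between SE times. SE at 12, 36 and 72 h was compared with the control group of the same hour, and SE at 6 and 24 h, which had none, with the mean of the 3 control groups. Nothing in the labels says whether the 3 samples of a group came from separate animals, so p-values measure the spread between these samples. The CA1 marker Wfs1 was present in all 24 libraries, at 67.8 to 537 CPM. Several libraries stood apart. In 6 of them the summed level of 11 sensory ganglion markers was above 100 CPM, namely Ctr 72 h replicate 2 (1750 CPM), SE 72 h replicates 1 (923 CPM) and 2 (489 CPM), SE 36 h replicate 3 (814 CPM), SE 12 h replicate 1 (631 CPM) and SE 6 h replicate 3 (323 CPM). The other 18 lay between 10.3 and 72.7 CPM. SE 72 h replicate 1 also had the highest sum of 6 dentate granule markers (334 CPM), and Ctr 12 h replicate 3 the highest sum of 8 CA3 and CA2 markers (2590 CPM against 561 to 1750 CPM elsewhere).

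From 12 h on, more release genes were called lower than higher. At 6 h after SE, 4 of the 44 were higher and 1 was lower, beside 15.8% of all genes called higher and 6.21% called lower. At 12 h, 3 were higher and 10 lower, beside 13.9% and 11.4% of all genes. At 24 h, 4 were higher and 7 lower, beside 15% and 9.22%. At 36 h, 3 were higher and 12 lower, beside 12.7% and 8.92%. At 72 h, 1 was higher and 13 lower, beside 15.3% and 4.22%. In the order of time, the median log2FC of the 44 was -0.07, -0.48, -0.32, -0.47 and -0.49, while that of all genes lay between 0.00 and 0.10. The 13 lower calls at 72 h became 6 with the 6 ganglion-marked libraries left out, which leaves 1 SE 72 h library, and 5 with the dentate granule sum as a covariate, and the 12 at 36 h became 7 with that covariate. Across these 5 comparisons 29 members were called at least once and 15 never, beside 49.9% of all genes called at least once. The fits at 6 and 24 h used the same 9 control libraries, so they are not independent of each other.

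**Figure D1:**
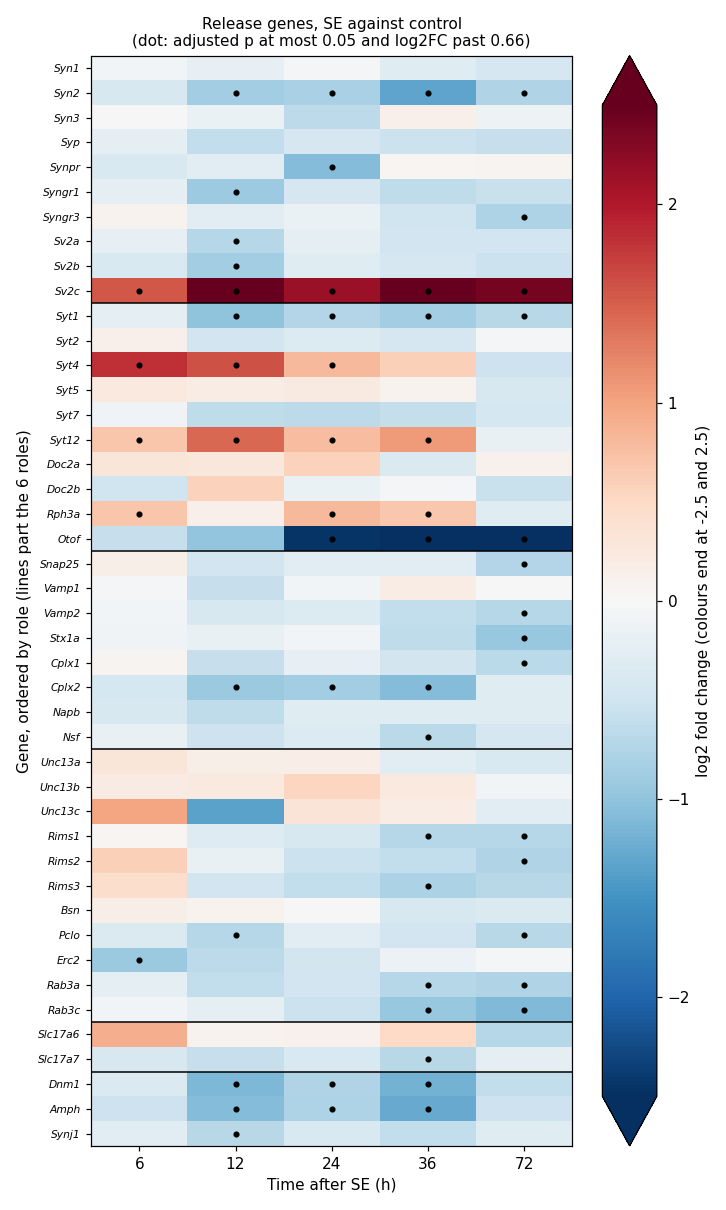
Log2 fold change of the 44 release genes (ordered by role from top to bottom) in the 5 SE groups, one column each. A dot marks a call; most dots lie on blue cells, and Sv2c is dotted in all 5 columns.

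Between control groups, the same test called none of the 44 members. Among all genes 0% were called for Ctr 36 h against Ctr 12 h, 2.04% for Ctr 72 h against Ctr 36 h and 1.03% for Ctr 72 h against Ctr 12 h in edgeR's quasi-likelihood test. At an unadjusted p under 0.05, 3, 9 and 10 members differed in these comparisons. No other tool was run on the control groups.

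In a dissected tissue, fewer neurons and less RNA per neuron cannot be told apart. Some marker lists of neurons and of other cells also moved, not all of them in the direction of the release genes. The dentate granule and ganglion sums entered some fits as covariates, but whether any of the lists accounts for the results was not tested. The 12 pan-neuronal markers had a median log2FC of -0.19, -0.03 and -0.33 at 12, 36 and 72 h, with 2, 1 and 1 of them called lower and 2, 2 and 0 called higher. The 9 CA1 pyramidal markers had medians of -0.41, -0.71 and -0.64, with 2, 4 and 3 called lower. At 36 h the sum of 10 interneuron markers was higher, at 1180 to 1280 CPM against 948 to 999 CPM. That of the CA3 and CA2 markers was lower, at 561 to 660 CPM against 998 to 1060 CPM. That of the dentate granule markers was higher, at 82.1 to 194 CPM against 41.1 to 56.7 CPM. Each was without overlap. The most abundant genes of a list weigh most in its sum, so a sum does not show that each marker moved. At 72 h the interneuron sum was 576 to 986 CPM against 814 to 1170 CPM, and 5 of the 10 were called lower. The 9 microglial markers summed to 365 to 448 CPM in controls and to 1580 to 2260 CPM at 72 h, when all 9 were called higher. The 8 astrocyte markers summed to 4890 to 6000 CPM in controls and to 12900 to 14400 CPM at 72 h.

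The endocytosis genes among the members fell by 12 h, whereas those of a wider list, given below, went both ways or were not called. All 3 members of this role were called lower at 12 h, beside 11.4% of all genes. Both Dnm1 and Amph were lower at 24 and 36 h, beside 9.22% and 8.92%. None of the 3 was called at 6 or 72 h. Dnm1 (2:32197854-32243376, minus strand, GRCm39) encodes dynamin-1, the GTPase that pinches vesicles from the membrane. It was present at 1393, 1576 and 2079 CPM in Ctr 12 h and at 693, 969 and 652 CPM in SE 12 h. It was present at 1561, 1574 and 1592 CPM in Ctr 36 h and at 644, 666 and 774 CPM in SE 36 h. The groups did not overlap at either time, with the 36 h controls close together. Its log2FC was -1.13 ± 0.16 (SE of the fit, n = 3 per group, adjusted p = 2.2e-05) at 12 h, -0.76 ± 0.14 (adjusted p = 0.00016) at 24 h, a call lost without SE 24 h replicate 1, and -1.18 ± 0.16 (adjusted p = 1.25e-05) at 36 h. At 72 h, Dnm1 stood at 764, 882 and 882 CPM against 1324, 1126 and 1403 CPM, still without overlap, with a log2FC of -0.61 (adjusted p = 0.0075) that was just short of the size threshold.

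Amph (13:19132375-19338201, plus strand, GRCm39), which encodes amphiphysin, a partner of dynamin that senses membrane curvature, followed the same course. Its level was 264, 286 and 290 CPM in Ctr 36 h and 104, 96.9 and 151 CPM in SE 36 h. No SE library reached the lowest control. Its log2FC was -1.08 ± 0.19 (adjusted p = 0.00024) at 12 h, -0.78 ± 0.17 (adjusted p = 0.00085) at 24 h, -1.25 ± 0.20 (adjusted p = 5.8e-05) at 36 h and -0.51 (adjusted p = 0.056) at 72 h. Synj1, which encodes the lipid phosphatase synaptojanin-1 that strips clathrin coats, was called at 12 h (log2FC -0.70 ± 0.14, adjusted p = 0.00049), with 613, 504 and 743 CPM in controls against 432, 409 and 305 CPM. Its call was lost without Ctr 12 h replicate 3, without SE 12 h replicate 3, with library totals as the only scaling and with the sensory ganglion score as covariate.

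Of the 10 vesicle proteins, 4 were lower and 1 was higher at 12 h, 1 each at 36 h, and 2 lower and 1 higher at 72 h. Of all genes, 11.4% were lower and 13.9% higher at 12 h, 8.92% and 12.7% at 36 h, and 4.22% and 15.3% at 72 h. The synapsins, which tether vesicles to one another and to actin, did not move alike. Syn2 (6:115111825-115261708, plus strand, GRCm39) stood at 751, 716 and 788 CPM in Ctr 36 h and at 306, 260 and 337 CPM in SE 36 h. In SE 12 h it was at 340, 692 and 332 CPM, against 698, 687 and 1113 CPM in controls. The 36 h groups were far apart, whereas SE 12 h replicate 2 lay within the control range. Syn2 was called lower at 12 h (log2FC -0.88 ± 0.22, adjusted p = 0.0038), 24 h (-0.80 ± 0.19), 36 h (-1.32 ± 0.22, adjusted p = 0.00014) and 72 h (-0.75 ± 0.22, adjusted p = 0.015), but the 12 h call was lost without Ctr 12 h replicate 3 (log2FC -0.61) and the 72 h call without Ctr 72 h replicate 1 or SE 72 h replicate 2. Syn1 was called at none of the 5 times, with log2FC between -0.41 and -0.05, and Syn3, the least abundant member per length, ranged from 1.87 to 7.67 CPM over all libraries with no call. Per kilobase of canonical transcript, Syn2 made up 52.4% to 54.4% of the summed synapsin level in Ctr 36 h and 34.2% to 38.7% in SE 36 h, and Syn1 45.5% to 47.5% and 61.1% to 65.5%. The shares in the 2 groups did not overlap.

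**Figure D2:**
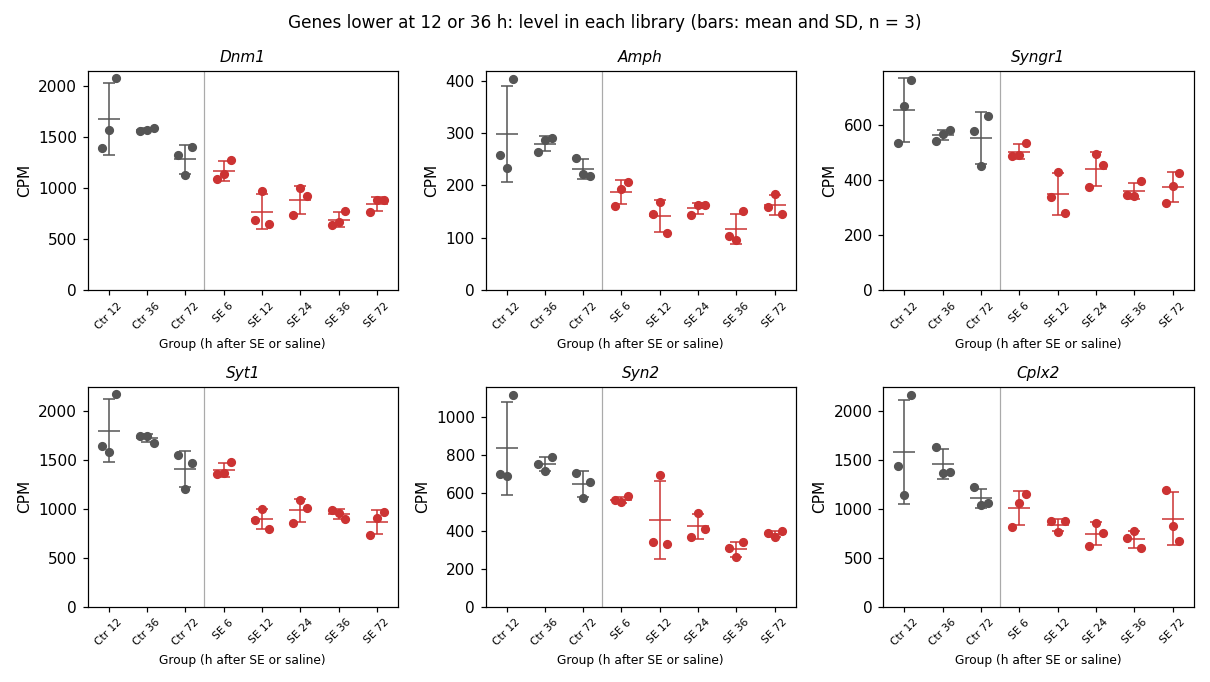
Level (CPM, y axis) of Dnm1, Amph, Syngr1, Syt1, Syn2 and Cplx2 in each library (points), by group (x axis), with the mean and SD of 3 libraries as bars. At 36 h the SE libraries of all 6 genes lie below the 3 controls of that hour, with Dnm1 at 644 to 774 CPM.

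Syngr1, the synaptogyrin-1 gene of the vesicle membrane, was lower at 12 h, at 337, 431 and 282 CPM against 533, 668 and 765 CPM (log2FC -0.91 ± 0.15, adjusted p = 0.00014). Those groups did not overlap, and the call held in every alternative and with any library left out. Its relative Syngr3 did not overlap at 36 h, at 114, 104 and 110 CPM against 147, 149 and 165 CPM (log2FC -0.49, adjusted p = 0.0196), and was called lower at 72 h, at 85.3, 114 and 89.8 CPM against 165, 128 and 205 CPM (log2FC -0.77 ± 0.16, adjusted p = 0.00103), a call lost without Ctr 72 h replicate 3. Whether the time courses of Syngr1 and Syngr3 differed from each other was not tested. Syp, which encodes synaptophysin, an abundant membrane protein of the vesicle, was at 784, 796 and 1006 CPM in Ctr 12 h and 526, 671 and 494 CPM in SE 12 h. Its log2FC ran from -0.62 to -0.41 at 12 to 72 h with adjusted p of 0.0014 to 0.0062, always short of the size threshold. Synpr, a synaptophysin relative enriched in mossy fibre terminals, was called lower at 24 h (log2FC -1.09 ± 0.39, adjusted p = 0.029), at 28, 48.8 and 33.7 CPM against 55.8 to 144 CPM in the 9 controls, a call lost without Ctr 12 h replicate 3, Ctr 72 h replicate 2 or SE 24 h replicates 1 or 3, and with label number range as a factor (log2FC -0.57, adjusted p = 0.47). At 72 h it was at 204, 55.4 and 24.1 CPM against 80.5, 132 and 60 CPM, with the highest value of all libraries in SE 72 h replicate 1, which also had the highest dentate granule sum. Its 72 h log2FC was 0.06 in the full fit and -1.15 (adjusted p = 0.0134) without that library.

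The 3 SV2 genes, which encode vesicle glycoproteins that modulate calcium-triggered release, moved in opposite directions. Sv2a, the target of levetiracetam, stood at 584, 666 and 634 CPM in Ctr 12 h and at 387, 428 and 341 CPM in SE 12 h (log2FC -0.70 ± 0.10, adjusted p = 3.7e-05). Sv2b was at 650, 571 and 827 CPM in Ctr 12 h and 370, 569 and 181 CPM in SE 12 h (log2FC -0.87 ± 0.32, adjusted p = 0.039). Neither pair of groups overlapped, but Sv2b was spread widely in SE 12 h, and its call was lost without any 1 of 4 libraries of that comparison, namely Ctr 12 h replicates 1 and 3 and SE 12 h replicates 1 and 3. The Sv2a call was lost without Ctr 12 h replicate 2 or SE 12 h replicate 3, at log2FC no nearer to 0 than -0.62. Sv2a and Sv2b were not called at any other time.

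Sv2c (13:96091102-96269085, minus strand, GRCm39) was the only member called at all 5 times, and it was higher each time. It was at 7.7, 13.2 and 12.1 CPM in Ctr 36 h and at 189, 162 and 185 CPM in SE 36 h, without overlap (log2FC 4.08 ± 0.51, adjusted p = 5e-06). In SE 6 h it was at 53.2, 23.2 and 56.3 CPM, in SE 12 h at 145, 25.5 and 53.9 CPM, and in SE 24 h at 73, 59.1 and 69.2 CPM. Every SE library was above 8 of the 9 controls, which lay between 7.7 and 13.5 CPM; the exception among controls was Ctr 72 h replicate 2 at 252 CPM. The log2FC was 1.56 ± 0.36 (adjusted p = 0.002) at 6 h, 2.53 ± 0.49 (adjusted p = 0.00045) at 12 h and 2.15 ± 0.35 (adjusted p = 6.7e-05) at 24 h. At 72 h it was at 352, 81.1 and 45.5 CPM against 8.1, 252 and 12 CPM, groups that overlapped because of that control library (log2FC 2.39 ± 0.51, adjusted p = 0.0016).

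Sv2c moved with markers of other cells in some libraries. Ctr 72 h replicate 2 had the highest sensory ganglion sum, and SE 72 h replicate 1, with the highest Sv2c level, had high sums of both lists. In the 18 libraries with a ganglion sum of at most 100 CPM, Sv2c ranged from 7.7 to 13.5 CPM in 8 controls and from 23.2 to 189 CPM in 10 SE libraries, without overlap. With the 6 other libraries left out, an alternative chosen after seeing the data, Sv2c stayed called at all 5 times, with log2FC of 1.88, 1.80, 2.67, 3.99 and 2.28. With the dentate granule sum as a further covariate, it was 0.87, 2.06, 1.93, 2.59 and 1.01, and the 72 h call was lost (adjusted p = 0.0729). The calls at 6, 24 and 72 h were also lost without the factor of unwanted variation (log2FC 0.98, 1.58 and 0.80), those at 6, 12 and 72 h with the ganglion sum in its place (1.22, 1.62 and 1.18), and that at 72 h without Ctr 72 h replicate 1 (log2FC 1.37); without Ctr 72 h replicate 2 it was 4.01. Per kilobase of transcript, Sv2c made up 0.429% to 0.72% of the summed SV2 level in Ctr 36 h and 10.7% to 13.9% in SE 36 h, so Sv2a and Sv2b remained the larger shares in those libraries.

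**Figure D3:**
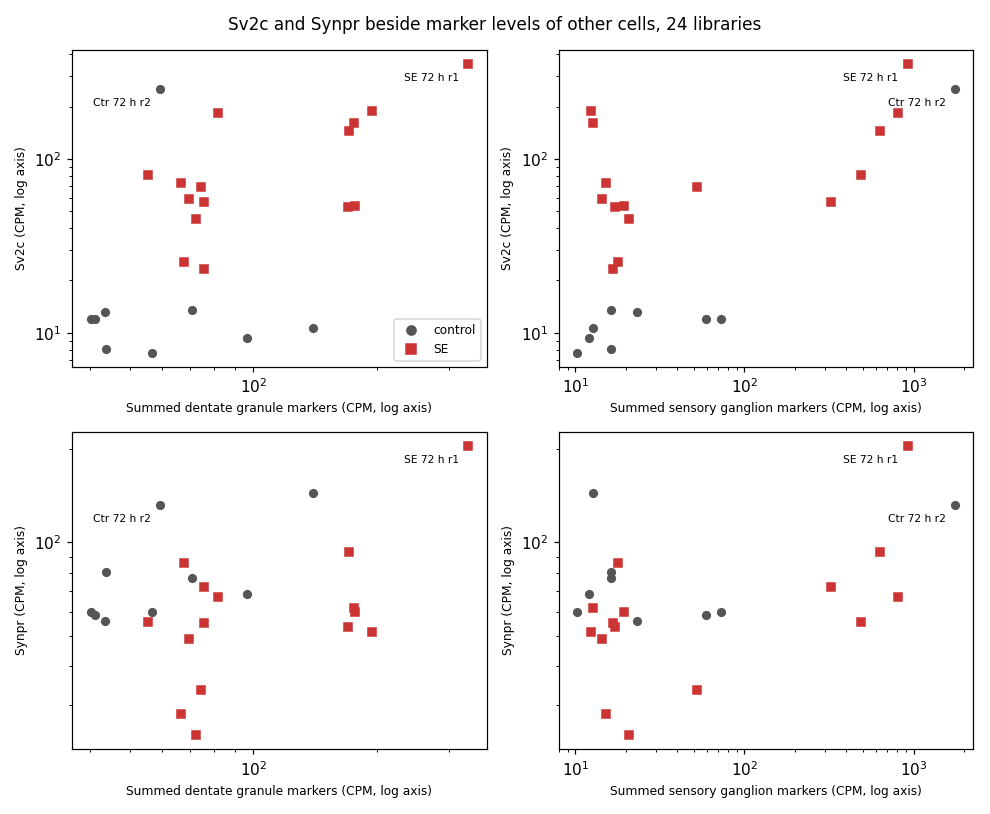
Level of Sv2c (top) and Synpr (bottom) in CPM on log axes against the summed level of dentate granule (left) and sensory ganglion markers (right) in 24 libraries; circles are controls and squares SE. Ctr 72 h replicate 2 is the only control with a high Sv2c level, 252 CPM, and it has the highest ganglion sum, 1750 CPM.

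Of the 10 calcium sensors and related proteins, 3 were higher at 6 h and 2 were higher and 1 lower at 12 h, and at 72 h none was higher and 2 were lower. Of all genes, 15.8% were higher at 6 h, 13.9% higher and 11.4% lower at 12 h, and 15.3% higher and 4.22% lower at 72 h. Syt1, the sensor for fast synchronous release, was at 1649, 1583 and 2178 CPM in Ctr 12 h and at 888, 1005 and 798 CPM in SE 12 h. At 36 h it was at 1750, 1745 and 1678 CPM in controls and 993, 960 and 893 CPM after SE. The groups did not overlap from 12 h on. The log2FC was -1.01 ± 0.13 at 12 h (adjusted p = 8.8e-06), -0.73 ± 0.11 at 24 h, -0.86 ± 0.13 at 36 h and -0.70 ± 0.13 at 72 h (adjusted p = 0.000499), while at 6 h it was -0.22 (adjusted p = 0.11). The 24 h call was lost without SE 24 h replicate 1 and the 72 h call without Ctr 72 h replicate 1 or SE 72 h replicate 1. Syt1 and Syn2 were the 2 members called lower at 12, 36 and 72 h alike, beside 1.32% of all genes, and Sv2c the 1 called higher, beside 4.65%.

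Syt4 and Syt12, synaptotagmins that lack the calcium binding of Syt1 in at least part of their C2 domains, rose early. Syt4, known as a gene induced by neuronal activity, was at 160 to 228 CPM in the 9 controls. It was at 396, 811 and 963 CPM in SE 6 h and at 419, 561 and 807 CPM in SE 12 h, above every control. At 24 h it was at 271, 280 and 527 CPM, and at 72 h at 136, 174 and 156 CPM against 209, 225 and 228 CPM. Its log2FC was 1.82 ± 0.22 at 6 h (adjusted p = 2.4e-06), 1.59 ± 0.29 at 12 h (adjusted p = 0.00031) and 0.81 ± 0.23 at 24 h (adjusted p = 0.0072), the last lost without SE 24 h replicate 3 (log2FC 0.42) and with label number range as a factor (log2FC 0.47, adjusted p = 0.294). At 36 and 72 h it was 0.60 (adjusted p = 0.12) and -0.51 (adjusted p = 0.2). The SE effect at 72 h was lower than that at 12 h by a test of the difference (log2FC -2.10 ± 0.41, adjusted p = 0.0016).

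Syt12 was at 18.4, 16.3 and 27.5 CPM in Ctr 12 h and at 74.2, 56.5 and 38.3 CPM in SE 12 h, without overlap (log2FC 1.43 ± 0.26, adjusted p = 0.00027). At 36 h it was at 20.6, 26.6 and 25.3 CPM against 46.8, 49.1 and 56.1 CPM (log2FC 1.07 ± 0.26, adjusted p = 0.0035). By 72 h the groups overlapped, at 23.1, 25.6 and 21.7 CPM in controls and 16, 16.9 and 28.2 CPM after SE. It was also called at 24 h (log2FC 0.76) and at 6 h (log2FC 0.68), where the groups overlapped and the call was lost without any 1 of 4 libraries, namely SE 6 h replicates 1 and 2, Ctr 12 h replicate 1 and Ctr 36 h replicate 1. The difference of the SE effects at 72 and 12 h was -1.63 ± 0.38 (adjusted p = 0.0046), and SE 72 h lay below SE 36 h (log2FC -1.305). The difference of effects was -0.93 (adjusted p = 0.155) with label number range as a factor and -0.86 (adjusted p = 0.132) with the ganglion-marked libraries left out.

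Rph3a, which encodes rabphilin-3A, an effector of RAB3 with C2 domains, was at 424, 435 and 470 CPM in SE 6 h against 205 to 385 CPM in the 9 controls, without overlap (log2FC 0.69 ± 0.19, adjusted p = 0.0082). It was called higher at 24 h, at 412, 347 and 694 CPM (log2FC 0.82 ± 0.19, adjusted p = 0.0021), and at 36 h, at 282, 307 and 450 CPM against 232, 205 and 214 CPM (log2FC 0.68 ± 0.25, adjusted p = 0.042). The 24 h libraries overlapped the controls, and that call was lost without SE 24 h replicate 3 and with label number range as a factor (log2FC 0.55, adjusted p = 0.15). The 36 h call was lost in 6 alternatives and without any 1 of 5 libraries, which were Ctr 36 h replicates 1, 2 and 3, SE 36 h replicate 3 and SE 6 h replicate 2, and the 6 h call without SE 6 h replicate 3 or Ctr 12 h replicate 1.

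**Figure D4:**
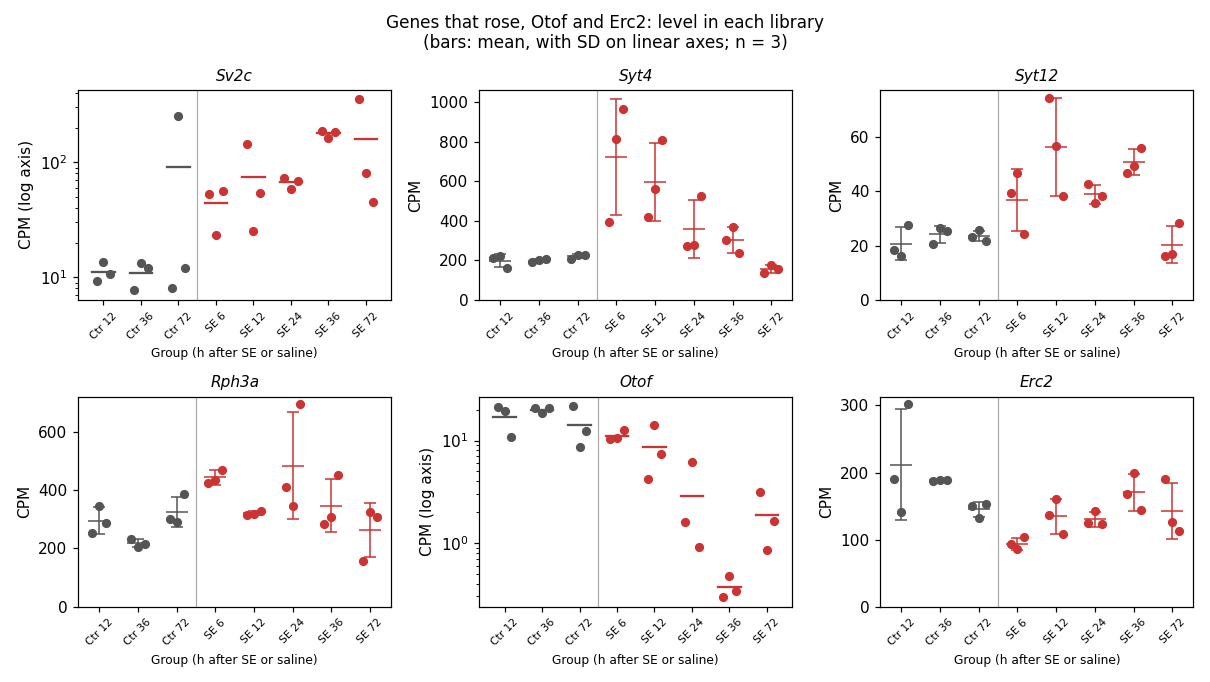
Level (CPM, y axis) of Sv2c, Syt4, Syt12, Rph3a, Otof and Erc2 in each library (points) by group (x axis); bars are means, with the SD of 3 libraries on linear axes, and Sv2c and Otof are on log axes. Syt4 is highest at 6 h, at up to 963 CPM, and Otof lowest at 36 h, at 0.296 to 0.473 CPM.

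Otof (5:30524406-30619324, minus strand, GRCm39) encodes otoferlin, the calcium sensor of hair cell ribbon synapses, and had the largest fall. It was at 20.6, 18.5 and 20.9 CPM in Ctr 36 h and at 0.296, 0.473 and 0.342 CPM in SE 36 h, which rest on 4, 6 and 6 reads. At 24 h it was at 1.59, 6.18 and 0.911 CPM against 8.7 to 21.7 CPM in the 9 controls, and at 72 h at 3.14, 0.858 and 1.66 CPM against 21.7, 8.7 and 12.4 CPM. No SE library from 24 h on reached the lowest control. The log2FC was -2.44 ± 0.47 at 24 h (adjusted p = 0.00033), -5.73 ± 0.67 at 36 h (adjusted p = 2e-06) and -2.83 ± 0.55 at 72 h (adjusted p = 0.00068), and these 3 calls held in every alternative and with any library left out. At 12 h, when its groups overlapped, the log2FC was -0.99 (adjusted p = 0.11). The difference of the effects at 36 and 12 h was -4.74 ± 0.82 (adjusted p = 0.0049). Otof was also lower in SE 36 h than in SE 24 h (log2FC -3.04) and higher in SE 72 h than in SE 36 h (log2FC 2.38).

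The other 5 sensors were not called at any time. Syt7, the sensor for slow and asynchronous release, had log2FC of -0.64 at 12 h (adjusted p = 0.046) and -0.65 at 24 h (adjusted p = 0.018), both with overlapping libraries. Syt5, Syt2, Doc2a and Doc2b had log2FC between -0.56 and 0.57 at the 5 times. Syt2 was highest in Ctr 72 h replicate 2 (99.2 CPM), the library with the highest ganglion sum. Doc2b, which encodes a high-affinity sensor linked to spontaneous release, was lower in SE 72 h, at 38.9, 97.8 and 87.2 CPM, than in SE 36 h, at 221, 219 and 151 CPM (log2FC -1.40), but Ctr 72 h, at 122, 138 and 73.1 CPM, was also below Ctr 36 h, at 182, 210 and 211 CPM.

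Few genes were called between consecutive SE times, both among the members and among all genes. None of the 44 was called between SE 12 h and 6 h or between SE 24 h and 12 h in edgeR's quasi-likelihood test, beside 1.34% and 3.22% of all genes; 15 and 8 members had an unadjusted p under 0.05, and no other tool was run on these steps. Otof was the 1 member called between SE 36 h and 24 h, beside 0.523% of all genes. Otof, Syt12 and Doc2b were the 3 called between SE 72 h and 36 h, beside 4.17%. By the test of differing SE effects, 1 member was called for 36 h against 12 h (Otof, lower at 36 h). Of all genes, 3.37% were called there in either direction and 1.38% lower. For 72 h against 12 h 3 were called (Syt4, Syt12 and Rab3c, each lower at 72 h), beside 18.6% in either direction and 6.28% lower. None was called for 72 h against 36 h, beside 4.89% in either direction. In that last test 10 members had an unadjusted p under 0.05, and DESeq2 called 2 (Otof higher, Syt12 lower) and limma-voom 0.

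Genes of membrane fusion and of the active zone make up 19 members, and none of them was called higher. The number called lower was 1, 2 and 1 at the first 3 times, 6 at 36 h and 9 at 72 h, beside 6.21%, 11.4%, 9.22%, 8.92% and 4.22% of all genes in the order of time. Their median log2FC was -0.48 at 12 h and -0.67 at 72 h, and of the 19 only Rab3c was called for a difference of the SE effect between 72 and 12 h, so for the other 18 a difference between these times was not shown.

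The genes of the 3 proteins of the neuronal fusion complex were called lower at 72 h. Snap25, which encodes a membrane SNARE, was the most abundant member per kilobase in controls, at 2492, 2211 and 2754 CPM in Ctr 72 h and 1324, 1529 and 1646 CPM in SE 72 h (log2FC -0.73 ± 0.15, adjusted p = 0.0014). Vamp2, the SNARE of the vesicle, was at 1178, 1005 and 1458 CPM in Ctr 72 h and at 656, 681 and 878 CPM in SE 72 h (log2FC -0.71 ± 0.13, adjusted p = 0.0003). Stx1a, their partner on the plasma membrane, was at 122, 104 and 163 CPM against 44.6, 71.1 and 85.7 CPM (log2FC -0.95 ± 0.30, adjusted p = 0.023). None of the 3 pairs of groups overlapped. Snap25 and Vamp2 were lower without overlap before that, short of the size threshold. Snap25 was at 1943, 1967 and 1939 CPM in SE 12 h against 2432, 2261 and 3425 CPM (log2FC -0.47, adjusted p = 0.0191). Vamp2 was at 832, 1049 and 892 CPM in SE 12 h against 1154, 1236 and 1280 CPM (log2FC -0.41, adjusted p = 0.0155), and at 844, 777 and 851 CPM in SE 36 h against 1339, 1216 and 1232 CPM (log2FC -0.61, adjusted p = 0.000928). All 3 calls at 72 h were lost without Ctr 72 h replicate 3, the shallowest library, and without SE 72 h replicate 1, with log2FC still below 0. Vamp1, the second vesicle SNARE, was not called (log2FC -0.58 to 0.18), and its highest level, 284 CPM, was in Ctr 72 h replicate 2.

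The complexins are small proteins that clamp and promote the fusion complex. Cplx2 was lower at 12 h, at 872, 759 and 872 CPM against 1436, 1138 and 2168 CPM (log2FC -0.92 ± 0.22, adjusted p = 0.0024), and at 36 h, at 697, 769 and 596 CPM against 1637, 1362 and 1372 CPM (log2FC -1.08 ± 0.22, adjusted p = 0.00073). It was also lower at 24 h (log2FC -0.88), a call lost with label number range as a factor (log2FC -0.62). At 72 h its groups overlapped, at 1198, 826 and 672 CPM against 1220, 1038 and 1064 CPM (log2FC -0.30, adjusted p = 0.32). Cplx1 did not overlap at 12 h, at 424, 435 and 405 CPM against 561, 564 and 769 CPM (log2FC -0.58, adjusted p = 0.00536), or at 36 h, at 356, 324 and 443 CPM against 533, 527 and 492 CPM (log2FC -0.47, adjusted p = 0.0243). It passed the size threshold at 72 h, at 413, 361 and 362 CPM against 545, 639 and 629 CPM (log2FC -0.67 ± 0.15, adjusted p = 0.0028), a call that lay at the size threshold. It was lost without any 1 of 5 libraries, among them Ctr 72 h replicates 2 and 3 and SE 72 h replicates 2 and 3, and Ctr 12 h replicate 2. The 12 h call of Cplx2 was lost without Ctr 12 h replicate 3 (log2FC -0.63). Neither complexin passed the test of a differing effect between 72 and 12 h (adjusted p = 0.15 for Cplx2 and 0.82 for Cplx1).

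Nsf, the ATPase that takes spent SNARE complexes apart, was called lower at 36 h (log2FC -0.68 ± 0.14, adjusted p = 0.0007), at 767, 805 and 854 CPM against 1282, 1322 and 1270 CPM. The groups were far apart for their spread, but the log2FC lay so near the threshold that 3 alternatives and leaving out Ctr 12 h replicate 2, Ctr 36 h replicate 2 or SE 36 h replicate 1 lost the call. Napb, its neuronal adaptor, had log2FC between -0.64 and -0.29, with adjusted p of 0.00081 at 12 h, and was not called.

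**Figure D5:**
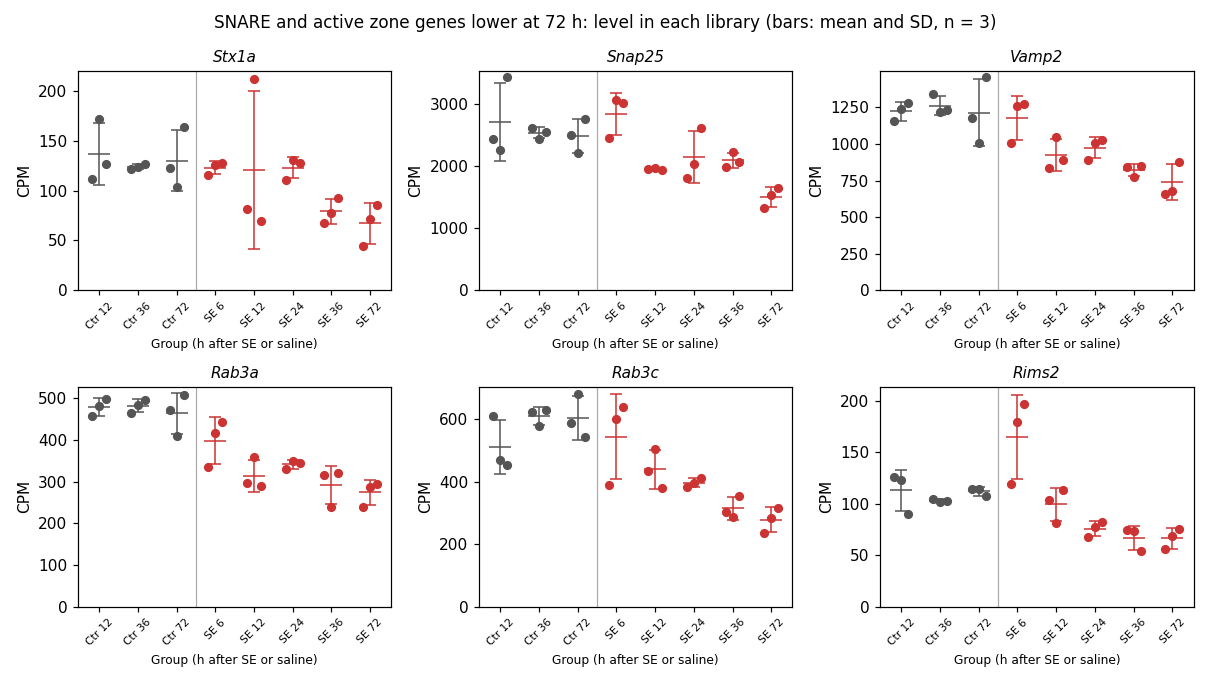
Level (CPM, y axis) of Stx1a, Snap25, Vamp2, Rab3a, Rab3c and Rims2 in each library (points) by group (x axis), with the mean and SD of 3 libraries as bars. At 72 h the SE libraries lie below the 3 controls of that hour, with Snap25 at 1324 to 1646 CPM.

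At the active zone, Rab3a and Rab3c were called lower at 36 and 72 h. They encode RAB3 proteins, GTPases that mark vesicles for docking. Rab3c was at 624, 578 and 630 CPM in Ctr 36 h and 303, 286 and 355 CPM in SE 36 h, and at 587, 681 and 542 CPM in Ctr 72 h and 236, 282 and 315 CPM in SE 72 h. At 12 h the groups overlapped, at 610, 470 and 453 CPM against 434, 504 and 379 CPM. The log2FC was -0.22 at 12 h (adjusted p = 0.31), -0.96 ± 0.16 at 36 h (adjusted p = 0.00016) and -1.11 ± 0.17 at 72 h (adjusted p = 4.4e-05), and the effect was larger at 72 than at 12 h (difference -0.89 ± 0.23, adjusted p = 0.01). That difference was -0.84 (adjusted p = 0.0645) with label number range as a factor and -0.63 (adjusted p = 0.169) with the ganglion-marked libraries left out, and the 36 h call of Rab3c was lost with the dentate granule sum as a covariate (log2FC -0.66). Rab3a was at 295, 359 and 289 CPM in SE 12 h against 457, 482 and 498 CPM, without overlap but short of the size threshold (log2FC -0.61, adjusted p = 0.000827), and SE 24 h, at 330, 350 and 344 CPM, lay below all 9 controls. It was called at 36 h (log2FC -0.72 ± 0.13) and 72 h (-0.76 ± 0.13, adjusted p = 0.00015), at 240, 288 and 295 CPM in SE 72 h against 472, 410 and 508 CPM. The 36 h call of Rab3a was lost without SE 36 h replicate 2, and both calls with that covariate.

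The RIM scaffolds, which bind RAB3 and calcium channels, include Rims1, Rims2 and Rims3. Rims1 was at 208, 210 and 194 CPM in Ctr 36 h and 117, 136 and 120 CPM in SE 36 h, without overlap. Its log2FC was -0.72 ± 0.12 at 36 h (adjusted p = 7.5e-05) and -0.71 ± 0.12 at 72 h (adjusted p = 0.00013). Rims2 was at 114, 114 and 107 CPM in Ctr 72 h and 55.5, 68.6 and 75.3 CPM in SE 72 h (log2FC -0.76 ± 0.18, adjusted p = 0.004), after values of 119, 179 and 197 CPM in SE 6 h (log2FC 0.59, adjusted p = 0.0023, short of the size threshold). The 72 h calls of Rims1 and Rims2 were lost without SE 72 h replicate 1, and that of Rims1 also without Ctr 72 h replicate 3. Rims3, a short RIM, was called at 36 h (log2FC -0.80 ± 0.30, adjusted p = 0.046), at 28.7, 27.3 and 52 CPM against 64.1, 61.2 and 59.6 CPM, and was lost without any 1 of 10 libraries and in 6 alternatives.

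Of the large scaffolds, Pclo (piccolo) was lower at 12 h (log2FC -0.72 ± 0.17, adjusted p = 0.0026), at 131, 190 and 102 CPM against 199, 204 and 292 CPM, and at 72 h (-0.69 ± 0.17, adjusted p = 0.0051), at 113, 127 and 131 CPM against 197, 178 and 226 CPM. The 12 h call was lost without Ctr 12 h replicate 3 or SE 12 h replicate 3, and the 72 h call without Ctr 72 h replicate 3 or SE 72 h replicate 1. Bsn (bassoon), the relative of piccolo, was not called, with log2FC between -0.40 and 0.14. Erc2 (14:27344274-28200509, plus strand, GRCm39), which encodes an ELKS scaffold, was the 1 member lower at 6 h, at 93.3, 85.4 and 103 CPM against 132 to 302 CPM in the 9 controls, without overlap (log2FC -0.93 ± 0.19, adjusted p = 0.00068). Its groups overlapped at 36 and 72 h, with log2FC of -0.14 and -0.02. The priming factors Unc13a, Unc13b and Unc13c (Munc13 proteins) were not called; Unc13b reached an adjusted p of 0.0074 at 24 h (log2FC 0.55), and Unc13c, at 8.2 to 72.7 CPM over all libraries, had a log2FC of -1.33 at 12 h (adjusted p = 0.0638) with overlapping groups.

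The vesicular glutamate transporters load vesicles. Slc17a7, which encodes VGLUT1 and made up 95.0% to 99.8% of the pair per kilobase in controls, was called lower at 36 h, at 975, 1051 and 1310 CPM against 1731, 1849 and 1799 CPM (log2FC -0.69 ± 0.24, adjusted p = 0.033). The groups did not overlap, yet the call was lost without any 1 of 6 libraries (Ctr 36 h replicates 1, 2 and 3, SE 36 h replicates 1 and 2 and Ctr 12 h replicate 2), and with the dentate granule sum as covariate the log2FC was -0.24. Slc17a6 (VGLUT2), at 7.19 to 94 CPM in controls, was not called, and its highest level was in Ctr 72 h replicate 2.

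Promoters are shown for 3 of the 10 members called lower at 12 h (Dnm1, Syn2 and Syngr1), of which Syn2 and Syngr1 hold an EGR match. They are also shown for the member that rose at all times (Sv2c). The last are the 2 that hold a match to the RE1 element, the site of the neuronal repressor REST (Syn1 and Rph3a). RefSeq's table of promoters on GRCm38.p6, from 250 bases before to 50 after a start site, matched 32 of the 44 members. Some members have several start sites there, 3 for Rph3a and 2 for Syn2, and 1 of each is shown. The searches, on both strands, were for the cAMP response element TGACGTCA, the AP-1 site TGANTCA, the EGR sites GCGGGGGCG and GCGTGGGCG, the TATA box TATAAA, and RE1 as stretches of 9 and 8 bases with a 2-base gap and up to 3 mismatches. Capitals mark a match, and each sequence runs 5′ to 3′ on the strand of the gene.
Dnm1 (chr2:32353280-32353579, minus strand): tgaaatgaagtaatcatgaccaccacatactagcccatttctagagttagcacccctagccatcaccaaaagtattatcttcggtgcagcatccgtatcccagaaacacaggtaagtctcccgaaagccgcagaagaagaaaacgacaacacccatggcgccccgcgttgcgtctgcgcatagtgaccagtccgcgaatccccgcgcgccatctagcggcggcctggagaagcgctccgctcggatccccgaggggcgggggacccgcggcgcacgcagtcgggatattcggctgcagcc
Syn2 (chr6:115134652-115134951, plus strand): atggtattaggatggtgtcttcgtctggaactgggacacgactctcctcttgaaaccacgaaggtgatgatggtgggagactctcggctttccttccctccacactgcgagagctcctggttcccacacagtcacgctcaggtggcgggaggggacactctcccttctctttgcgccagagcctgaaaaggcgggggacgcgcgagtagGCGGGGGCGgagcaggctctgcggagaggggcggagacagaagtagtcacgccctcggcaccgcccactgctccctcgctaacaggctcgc
Syngr1 (chr15:80091084-80091383, plus strand): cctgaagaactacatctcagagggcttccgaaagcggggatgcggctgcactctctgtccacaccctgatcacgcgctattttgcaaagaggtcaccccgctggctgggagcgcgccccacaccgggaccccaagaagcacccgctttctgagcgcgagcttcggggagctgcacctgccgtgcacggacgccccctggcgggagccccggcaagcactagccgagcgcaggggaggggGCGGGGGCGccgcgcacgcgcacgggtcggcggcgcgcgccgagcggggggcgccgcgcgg
Sv2c (chr13:96132528-96132827, minus strand): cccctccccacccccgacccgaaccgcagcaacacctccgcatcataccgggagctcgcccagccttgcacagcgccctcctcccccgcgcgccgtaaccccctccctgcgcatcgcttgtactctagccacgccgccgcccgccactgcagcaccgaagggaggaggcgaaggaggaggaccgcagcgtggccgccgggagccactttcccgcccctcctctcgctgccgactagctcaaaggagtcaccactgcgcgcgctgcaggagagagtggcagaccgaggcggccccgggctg
Syn1 (chrX:20920869-20921168, minus strand): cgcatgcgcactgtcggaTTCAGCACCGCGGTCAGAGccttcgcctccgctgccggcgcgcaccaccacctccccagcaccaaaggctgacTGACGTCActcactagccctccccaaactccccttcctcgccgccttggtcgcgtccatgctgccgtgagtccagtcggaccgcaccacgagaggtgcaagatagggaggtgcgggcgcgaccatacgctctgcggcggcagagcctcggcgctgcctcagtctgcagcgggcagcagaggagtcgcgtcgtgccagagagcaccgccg
Rph3a (chr5:121009489-121009788, minus strand): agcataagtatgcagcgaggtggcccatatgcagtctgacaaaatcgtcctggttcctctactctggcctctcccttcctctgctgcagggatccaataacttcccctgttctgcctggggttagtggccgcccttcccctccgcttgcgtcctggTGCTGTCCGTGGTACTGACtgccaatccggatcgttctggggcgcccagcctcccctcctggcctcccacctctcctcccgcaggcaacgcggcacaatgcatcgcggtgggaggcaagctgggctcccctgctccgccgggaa
The cAMP response element was found in 1 of the 32 members (Syn1) and in 2.03% of the 27025 genes of the table, the AP-1 site in 3 (Syt2, Rph3a and Erc2) and 8.97%, the EGR sites in 5 (Syn2, Syngr1, Cplx1, Unc13a and Synj1) and 3.93%, and the TATA box in 1 (Sv2b) and 15.7%. RE1 was found in 2 members and 0.189% of genes, with 2 mismatches in Syn1 and 3 in Rph3a. A gene was counted when any of its start sites held a match. The AP-1 match of Rph3a lies at a start site other than the one shown, and the other Syn2 start site holds no EGR match. A match is a run of letters, not a measured site. Of the members with an EGR match, Syn2, Syngr1 and Synj1 were called lower at 12 h, Cplx1 was called lower at 72 h, and Unc13a was not called. In all, 10 members were called lower at 12 h, all of them among the 32 whose promoters were searched. The others of these, Dnm1, Amph, Cplx2, Pclo, Sv2a, Sv2b and Syt1, had no EGR match. A link between matches and calls was not tested.

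A wider list of 90 other genes of the release machinery was written with earlier results of these data known. At 12 h 11 of them were called higher and 16 lower, beside 13.9% and 11.4% of all genes. At 36 h these were 8 and 11, beside 12.7% and 8.92%, and at 72 h 4 and 12, beside 15.3% and 4.22%. The medians were -0.13, -0.11 and -0.18. Called lower at all 3 times, beside 1.32% of all genes, were the endophilin genes Sh3gl2 (log2FC -1.19, -1.24 and -0.92) and Sh3gl3 (-0.99, -0.78 and -0.68), partners of dynamin and amphiphysin, with Sncb (beta-synuclein, -0.95, -1.13 and -0.90), Cadps2 (a priming factor of dense-core vesicles, -1.25, -1.54 and -1.10), Lin7b (-1.36, -1.63 and -0.88), Atp6v1g2 (a subunit of the vesicular proton pump, -0.93, -1.15 and -0.92) and Syt16 (-1.19, -0.98 and -0.98). Syngr2, a synaptogyrin found in many non-neuronal cells, was the 1 called higher at all 3 (0.72, 1.42 and 1.55), beside 4.65% of all genes. Among the list's endocytosis genes at 12 h, Dnm3, Dnajc6, Sh3gl2 and Sh3gl3 were called lower and Cltb, Picalm and Hspa8 higher. The others of that role, such as the Ap2 genes, Clta and Cltc, were not called at 12 h.

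Single times were led by other genes of that list. At 12 h the largest rises were of Syt6 (1.99), Rims4 (1.33) and Tmem163 (1.33) and the largest falls of Syt17 (-1.44), Lin7b and Prrt2 (-1.33). At 36 h Syt10, a synaptotagmin of dense-core vesicle release, rose most (2.698, with overlapping groups), followed by Syngr2 and Syt6 (1.35), and Lin7b, Cadps2 and Prrt2 (-1.27) fell most. At 72 h Rab3il1 (1.95), Syngr2 and Snap29 (0.77) rose most, and Slc17a8 (VGLUT3, -1.92), Cadps2 and Rab3b (-0.99) fell most.

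The numbers in the sample labels fell into 3 ranges, 92 to 104, 109 to 122 and 162 to 169, whose meaning the labels do not give. All 3 controls at 36 h and 2 SE 36 h libraries were in the middle range, and within it all 15 members called at 36 h had the same direction. The calls were made on these same libraries and 1 more, so this describes them and is no separate test. At 12 h no range held 2 libraries of each group. At 72 h all controls were in the highest range and no SE library was, and all 3 SE 24 h libraries were in the lowest range, which held no control. SE and label range cannot be told apart within those comparisons. The reads were counted without strand, so where exons of genes on opposite strands overlap, a read cannot be assigned by its strand. Genes on the opposite strand overlap the span of some members, such as Timp4 at Syn2 or Golga2 and Ciz1 at Dnm1. Whether their exons overlap was not examined. Otof, Syngr3, Vamp2, Cplx1 and Rims3 overlap no other annotated gene.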

How the data were processed

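CA1 messenger RNA (polyA-selected, TruSeq RNA v2) was sequenced in 24 libraries. The deposited values were raw read counts per gene: per the labels and the study's methods the authors trimmed reads with Trim Galore 0.6.6, aligned them to GRCm39 with STAR 2.7.8a and SAMtools 1.10, and counted them without strand with HTSeq 0.13.5. From these counts, edgeR 4.0.16 (R 4.3.3) was run with TMM scaling and 1 RUVr factor of unwanted variation over all 24 libraries, and p-values of its quasi-likelihood test were adjusted by Benjamini-Hochberg across the 18153 of 18647 genes kept by filterByExpr. The procedure was tested on simulated data.

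Groups came from the labels. The 44 members, the marker lists and the wider list were chosen with earlier results of these data known. Members called in at least 1 of the 5 comparisons of SE with controls were named with their values and the others with ranges. Of the wider list, those called one way at 12, 36 and 72 h and the 3 largest rises and falls at each of these times were named. Its endocytosis genes called at 12 h were named as well. Alternatives were DESeq2 1.42.0, limma 3.58.1, other scalings and filters, thinning, the replicate block, label number range and leaving out each library. Leaving out the sensory ganglion libraries and using the ganglion or dentate granule score were chosen after seeing the data. Tables and figures used Python 3.11.15, pandas 2.3.3 and matplotlib 3.10.9.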

Additional observations from a re-analysis of the deposited data

Results flagged for a closer look

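For 4 release genes the effect of SE differed between times by an interaction term in edgeR's quasi-likelihood test. The log2FC of Otof was lower at 36 h than at 12 h by a difference of -4.74, where 1.38% of all genes were called lower. Between 72 and 12 h, where 6.28% of all genes were called lower, the difference was -2.10 for Syt4, -1.63 for Syt12 and -0.89 for Rab3c. Those of Syt12 and Rab3c did not pass the test once the label number range was a term, or once the ganglion-marked libraries were left out, and the cause was not tested.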

How the results depend on the processing

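With no log2FC threshold, members called lower numbered 5, 20, 19 and 21 in the first 4 SE groups. With label number range as a factor, 16 were lower at 12 h and 2 higher at 24 h, and the difference of SE effects was called higher for 4 members at 72 against 12 h and for 1 higher and 1 lower at 72 against 36 h. With the dentate granule score, 7 were lower at 36 h, 5 at 72 h, none higher at 72 h and 1 lower for 72 against 36 h. With library totals only, 7 were lower at 36 h and 1 for 72 against 36 h. With the ganglion libraries left out, which leaves 1 SE 72 h library assumed to vary like the other groups, 6 were lower at 72 h, 3 lower and 1 higher for 36 against 12 h, and 1 higher for 72 against 12 h. None was higher at 72 h (0) without the RUVr factor, in a fit of the compared groups alone, or with the ganglion score. DESeq2 called 2 lower for 36 against 12 h and 1 higher and 1 lower for 72 against 36 h, DESeq2 size factors 1 lower there, and the compared groups only 1 higher and 2 lower. Thinning gave 5 lower for 72 against 12 h. Synpr at 72 h turned from 0.06 to -1.15 without SE 72 h replicate 1 (range over left-out libraries -1.15 to 0.57) and to -1.56 with the ganglion libraries left out. The cause was not tested in any of these.

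With each library left out in turn, counts ran from 2 to 6 higher and 1 lower (6 h), 3 higher and 6 to 18 lower (12 h), 2 to 4 higher and 4 to 9 lower (24 h), 2 to 3 higher and 9 to 14 lower (36 h), and 0 to 1 higher and 7 to 15 lower (72 h). For the differences of SE effects it gave 0 to 1 higher and 1 to 3 lower (36 against 12 h), 0 to 1 higher and 3 to 5 lower (72 against 12 h) and 0 to 1 of each (72 against 36 h). The 12 h count was 6 without Ctr 12 h replicate 3 or SE 12 h replicate 3, and it was 18 when SE 12 h replicate 2 was dropped. The 24 h counts were 2 higher without SE 24 h replicate 3 and 4 lower without SE 24 h replicate 1. The 6 h count was 2 higher without Ctr 12 h replicate 1. At 72 h 7 were lower without Ctr 72 h replicate 3 or SE 72 h replicate 1, and 0 higher without Ctr 72 h replicate 1.

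Replicate numbers did not pair the samples (median correlation of deviations -0.00281 for the same number). With the replicate block, 11 members were lower at 12 h, 11 lower and 2 higher at 36 h, and 1 (Otof, 2.99) was higher for 72 against 36 h.

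Of the 14 calls at 72 h, 2 held in all 14 alternatives and 24 leave-outs (Otof and Rab3c), against 8 of 15 at 36 h and 6 of 13 at 12 h. At 36 h Otof rests on 4 to 6 reads per SE library, and Ctr 72 h holds the shallowest library, so small differences there may not be detectable.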
